A study of Homo sapiens with 12 samples.

Results

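The genes described here were 10 interferon-induced genes whose proteins sense or bind foreign RNA or carry the ISG15 modification: IFIT1, IFIT2, IFIT3, IFIT5, OASL, ISG15, HERC5, ISG20, DDX58 and IFIH1. They were found by gene name among the 60504 genes of the deposited tables, and each name matched 1 identifier. The genes were chosen by their TPM (a length-corrected transcript level that sums to the same total in each library) in these same 12 libraries. Their differences between groups are therefore a description and carry no test.

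All 12 libraries came from T24, a cell line established from a human bladder cancer. In the knockout comparison, 2 libraries labelled U11 knockout (called the labelled knockout pair) stood against 2 of untreated T24. In the overexpression comparison, 6 libraries labelled U11 overexpression stood against 2 other libraries of untreated T24. The line labels 79, 86 and 87 marked 2 overexpression libraries each, and the sources used here do not explain them. U11 is the small nuclear RNA that recognises the start of minor-class introns. The study cut its gene with Cas9 and 2 guides and grew single clones. It overexpressed U11 from a plasmid and again selected clones, so each label may stand for 1 clone and carry that clone's own differences. Nothing says that libraries of a group came from separate cultures, so their spread may be technical. The library numbers fell into 3 runs, called library series here. All 4 libraries of the knockout comparison were in 1 series, while each line label and the overexpression controls had 1 library in each of the other 2 series. Aligned sequence ranged from 9.07 to 15.33 gigabases per library.

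The level of U11 in these libraries went against the knockout label. The study chose its knockout clone for the highest knockout efficiency by real-time PCR of U11, which was not analysed here. U11 has no poly(A) tail, the labels name poly(A) RNA and the methods describe ribosomal RNA depletion, so how well these libraries capture U11 was not tested. The levels of its 2 gene entries, both named RNU11, were summed. U11 stood at 21.4 and 23.8 TPM in the control pair and 31.6 and 37.4 TPM in the labelled knockout pair. Over the overexpression libraries it stood at 0.03 and 0.62 TPM in the control pair and 0.18 and 0.41 TPM with line label 79. With line label 86 it stood at 3.98 and 3.72 TPM, and with line label 87 at 61.9 and 53.6 TPM. Line label 79 thus lay within the range of its controls, and the labels are used below only as names. U11 differed widely between the untreated controls of the comparisons, so levels were set against the controls of the same comparison.

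The labelled cell type was checked on marker genes. The epithelial keratins KRT7, KRT8, KRT18 and KRT19 summed to between 1817 and 8930 TPM, with KRT7 the most abundant in each library. The urothelial factor PPARG was present in every library, while the uroplakins UPK1A, UPK1B, UPK2 and UPK3A, proteins of the differentiated bladder surface, stayed at or below 0.44 TPM. Of 7 blood cell markers, LYZ, CD3E and PTPRC followed the library series. LYZ stood between 1.55 and 1.68 TPM in the 4 libraries of 1 series and at 0 in the 4 libraries of the other overexpression series. CD3E reached 0.91 TPM and PTPRC 0.5 TPM in the same series. The 7 blood markers summed to at most 9.82 TPM in any library, and CD68 was the most abundant in each. CD68 did not follow the series. It was at 3.22 and 2.72 TPM in the overexpression controls and at 6.27 and 6.31 TPM with line label 87, where it rose by 0.88 ± 0.19 (SE) on the log2 scale, a call lost with the adjusted P. CD14 was at 0.43 and 0.57 TPM in those controls, 1.18 and 0.87 TPM with label 79 and 0.91 and 0.83 TPM with label 86. Unlike CD68, it was lower with label 87, at 0.22 and 0.36 TPM. The part of these markers in the results below was not tested.

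Interferons are secreted proteins that warn cells of viral infection, and the genes they switch on limit viral growth. DDX58 encodes RIG-I and IFIH1 encodes MDA5, helicases that detect viral RNA in the cytoplasm and signal through MAVS. The IFIT proteins bind viral RNA or the complexes that translate it. OASL enhances RIG-I signalling, and ISG20 is an exonuclease that degrades RNA. ISG15 is a ubiquitin-like protein that HERC5 attaches to newly made proteins. Transcription of such genes is driven by factors such as IRF9 and IRF3 at the interferon-stimulated response element (ISRE), and some also respond to NF-kappa B.

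The promoters are shown first, because the element through which interferon acts on such genes lies there. RefSeq promoter windows of GRCh38.p14, from 250 bases before to 50 after each transcription start, were matched for 8 of the 10 genes. DDX58 is listed there as RIGI, and IFIT3 had 2 starts, giving 9 windows. IFIT2 and OASL had no entry in the table used. The ISRE core GAAANNGAAA, searched on both strands, was found in 8 of the 9 windows, or 7 of 8 genes. It was found in 3.57% of all 35116 windows of that length. The stretches below, written 5′ to 3′ along each gene's own strand, show the ISRE matches in capitals. Matches that lie on the opposite strand read there as the reverse complement, and overlapping matches form 1 run of capitals.
ISG15, chr1:1013374-1013409, plus strand: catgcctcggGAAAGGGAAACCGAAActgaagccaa
HERC5, chr4:88456984-88457064, plus strand: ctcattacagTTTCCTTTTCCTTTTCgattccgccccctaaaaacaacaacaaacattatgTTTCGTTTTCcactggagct
IFIT1, chr10:89392497-89392539, plus strand: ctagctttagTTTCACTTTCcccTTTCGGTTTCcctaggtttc
IFIT3, first start, chr10:89327831-89327894, plus strand: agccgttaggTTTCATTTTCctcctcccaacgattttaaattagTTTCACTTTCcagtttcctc
IFIT3, second start, chr10:89332425-89332497, plus strand: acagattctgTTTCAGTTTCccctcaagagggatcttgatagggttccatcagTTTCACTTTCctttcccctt
IFIT5, chr10:89414513-89414583, plus strand: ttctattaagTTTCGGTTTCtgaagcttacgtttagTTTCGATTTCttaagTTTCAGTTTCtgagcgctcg
ISG20, chr15:88638937-88638966, plus strand: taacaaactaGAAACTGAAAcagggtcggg
IFIH1, distal pair, chr2:162318818-162318853, minus strand: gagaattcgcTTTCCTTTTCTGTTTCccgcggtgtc
IFIH1, proximal match, chr2:162318686-162318715, minus strand: gaagagaatcGAAACAGAAAccaaagtcag

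The DDX58 window held no ISRE core but held a match to the NF-kappa B site beginning 76 bases before the start, shown here in capitals because it is the only match of the motifs searched in that window.
DDX58, chr9:32526253-32526282, minus strand: tcatttcctcGGAAAATCCCtgctttcccc
The IFIH1 window held a match to the same site at the same distance from its start. The NF-kappa B site was found in 5.91% of all windows. The GAS element TTCNNNGAA, the interferon gamma type site, was found in 7.66% of all windows and in 0 of the 9. The plot of motif positions shows the matches lying between 159 bases before and a few bases past the start. A match describes the letters of the window and does not show binding.

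**Figure D1:**
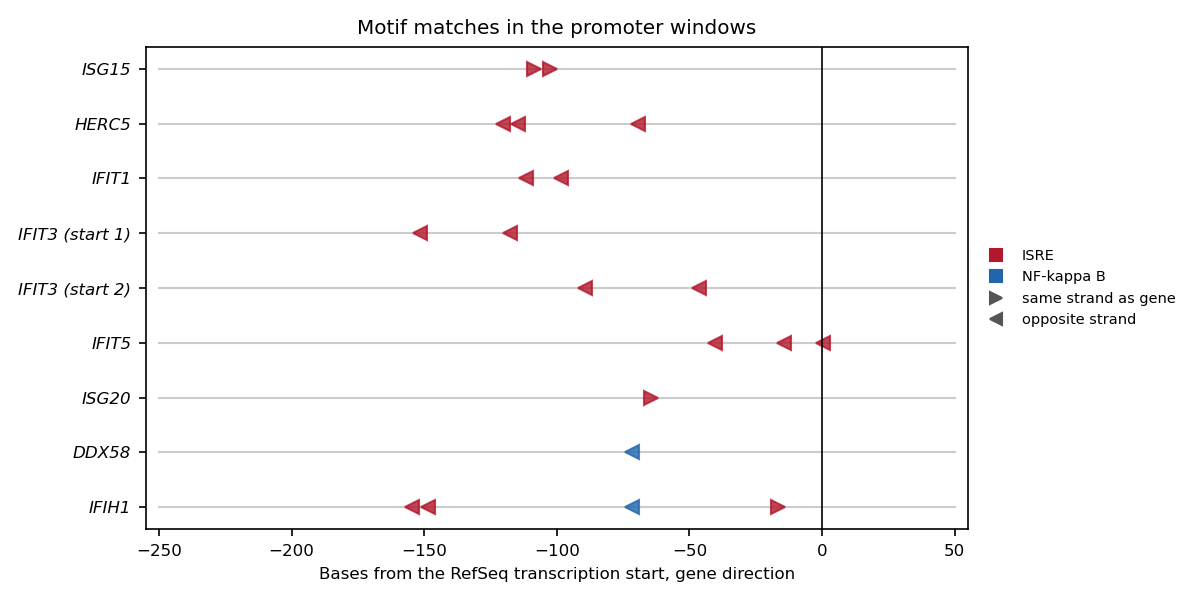
Positions of ISRE (red) and NF-kappa B (blue) matches in the 9 promoter windows, in bases from the RefSeq transcription start along the gene, with triangles giving the strand. ISRE matches lie in 8 of the 9 windows, and the DDX58 window holds only an NF-kappa B match.

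The deposited tables place ISG15 at chr1:1001138-1014541, HERC5 at chr4:88457117-88506163 and ISG20 at chr15:88636153-88656483, all on the plus strand of hg38. They place OASL at chr12:121019111-121039242, DDX58 at chr9:32455705-32526324 and IFIH1 at chr2:162267079-162318703, on the minus strand. The 4 IFIT genes form a cluster on chromosome 10 of hg38. It spans 89301955 to 89421001, or 119.0 kilobases, in the order IFIT2, IFIT3, IFIT1B, IFIT1 and IFIT5, all on the plus strand. IFIT1B was near 0 in every library. LIPA, a lysosomal lipase gene on the opposite strand, is annotated across IFIT1, IFIT2 and IFIT3 and ranged from 24.2 to 48.6 TPM. The sources used here do not state whether counting used strand, and reads of related IFIT genes could be shared, so the 4 values are not fully separate. LIPA differed from its controls by 0.24 ± 0.11 (SE) on the log2 scale in the knockout comparison and by -0.36 ± 0.15 with line label 79.

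In the knockout comparison all 10 genes were higher in both libraries labelled U11 knockout than in either control, as were 39.9% of all genes. OASL stood furthest apart. IFIT2, DDX58 and ISG20 were 2.59-fold, 2.20-fold and 2.07-fold higher by group means, and IFIT5 differed by only 1.14-fold. In such bulk libraries, more cells that express a gene and more RNA per cell cannot be told apart. The levels summed over the genes were 281.0 and 314.1 TPM in the controls and 595.0 and 576.4 TPM in the labelled knockout pair. Differences below are on the log2(TPM + 1) scale, which understates the change of low genes, with limma's standard error (SE).

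ISG15 was the most abundant of the genes in every library, and most of the summed level was ISG15. It stood at 169.9 and 176.4 TPM in the control pair and 314.7 and 308.9 TPM in the labelled knockout pair, a difference of 0.84 ± 0.07. HERC5, the ligase that attaches it, stood at 15.5 and 18.3 TPM against 33.9 and 31.4 TPM, a difference of 0.91 ± 0.13. For both genes the groups were separated by far more than the gap between libraries of a group.

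Among the IFIT genes, IFIT2 stood at 14.1 and 18.2 TPM in the control pair and 42.4 and 41.2 TPM in the labelled knockout pair, a difference of 1.33 ± 0.15. IFIT3 stood at 18.7 and 23.5 TPM against 40.1 and 38.8 TPM, a difference of 0.88 ± 0.14. IFIT1 stood at 23.7 and 29.8 TPM against 46.9 and 44.3 TPM, a difference of 0.76 ± 0.14. The fourth gene of the cluster stood apart from these, since IFIT5 was at 9.56 and 11.33 TPM in the control pair and 12.53 and 11.35 TPM in the labelled knockout pair. Its groups nearly touched, and its difference of 0.18 ± 0.13 was close to its error.

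OASL stood at 8.27 and 9.69 TPM in the control pair and 54.7 and 53.0 TPM in the labelled knockout pair. Its difference of 2.46 ± 0.12 ranked 15 among the 14356 genes measured in this comparison. ISG20 stood at 5.32 and 5.80 TPM against 10.58 and 12.48 TPM, a difference of 0.93 ± 0.13. OASL moved from eighth place among the 10 genes in the controls to the second place, behind ISG15, in the libraries labelled U11 knockout.

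Of the RNA sensors, DDX58 stood at 11.5 and 15.2 TPM in the control pair and 30.9 and 27.6 TPM in the labelled knockout pair, a difference of 1.09 ± 0.16. IFIH1 stood at 4.70 and 5.92 TPM against 8.44 and 7.45 TPM, a difference of 0.51 ± 0.15. The groups did not overlap for either sensor, as for all 10 genes, and the gap was wider for DDX58.

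The study called a gene changed at a P under 0.05 with at least a 1.5-fold change, and the P was taken here as unadjusted. By these thresholds, 8 of the 10 genes were called higher and 0 lower. IFIT5 and IFIH1 were the exceptions. Of all genes, 8.61% were called higher and 3.15% lower. With an adjusted P under 0.05 in place of the unadjusted P, the same 8 genes were called beside 4.78% of all genes. All 10 had both libraries above both controls, as did 39.9% of all genes. Because these values chose the genes, nothing is read from these counts. The median difference was 0.90 over the 10 genes and 0.11 over all genes. Higher genes made up 73.2% of all calls, but 55.7% on FPKM (the same measure before scaling to a fixed total) and 52.7% after median ratio scaling. All 10 genes remained higher on both scales. Against all 4 untreated libraries, 2 genes were called in place of 8, while over all genes 338 were called higher in place of 1236. The median was then 0.35 over the 10 genes and -0.31 over all genes, and higher genes made up 34.6% of all calls.

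**Figure D2:**
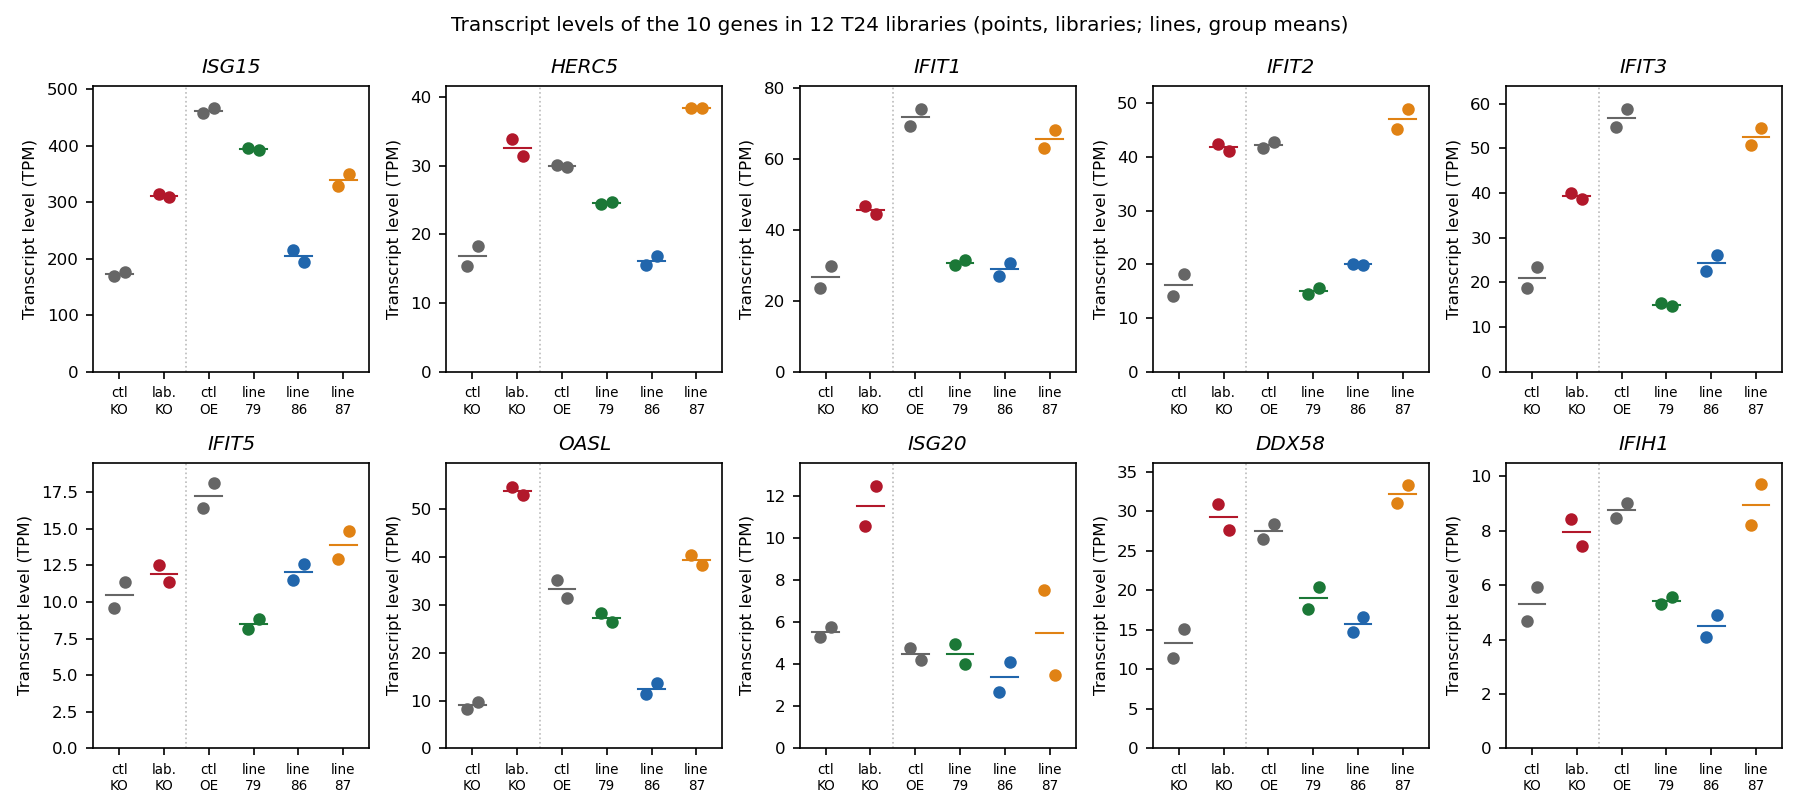
Level of each gene in TPM (vertical axes, starting at 0) in the 12 libraries, with 1 point per library and lines at group means, where ctl marks the untreated controls of the knockout (KO) and overexpression (OE) comparisons and lab. KO the libraries labelled U11 knockout. All 10 genes lie higher in the libraries labelled U11 knockout than in their controls. Line label 86 lies below its controls for all 10, and line label 79 well below them for the IFIT genes. Line label 87 lies near them for most genes, with ISG15 further below.

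The 6 overexpression libraries did not behave as 1 group. As a whole they were lower than their 2 controls for all 10 genes by mean difference, with a median of -0.52 over the 10 and -0.02 over all genes. IFIT1 alone was called, at -0.87 ± 0.36, beside 1.16% of all genes called lower. That call was lost without either control. With the adjusted P, 0 of the 10 were called lower, as were 0.114% of all genes. IFIT1, IFIT3, IFIT5 and ISG15 had all 6 libraries below both controls, as did 5.24% of all genes. The line labels were next compared with the same 2 controls. These comparisons share their controls, so any common shift may come from the controls.

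With line label 79, the IFIT genes were far below the controls and the other genes much less so. IFIT3 stood at 54.8 and 58.7 TPM in the control pair and 15.3 and 14.8 TPM with label 79, which is 3.78-fold lower and a difference of -1.85 ± 0.09. IFIT2 stood at 41.7 and 42.7 TPM against 14.5 and 15.6 TPM, or 2.81-fold lower. IFIT1 stood at 69.2 and 74.2 TPM against 30.0 and 31.6 TPM, or 2.33-fold lower. IFIT5 stood at 16.4 and 18.1 TPM against 8.17 and 8.84 TPM, or 2.03-fold lower. The whole cluster was thus lower, and its libraries of label 79 lay close together.

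Outside the cluster, the differences with label 79 were smaller. ISG15 stood at 457.3 and 467.0 TPM in the control pair and 396.2 and 392.3 TPM with label 79, a difference of -0.23 ± 0.07. OASL stood at 35.3 and 31.5 TPM against 28.3 and 26.4 TPM, a difference of -0.28 ± 0.11. HERC5 differed by -0.27 ± 0.07, DDX58 by -0.51 ± 0.11 and IFIH1 by -0.60 ± 0.12. ISG20, at 4.77 and 4.19 TPM in the controls and 4.96 and 4.04 TPM with label 79, overlapped its controls. Thus 9 genes were below both controls, as were 30.7% of all genes. The 4 IFIT genes and IFIH1 were called lower beside 5.52% of all genes, and the same 5 with the adjusted P beside 3.99%.

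Line label 86 was low across the whole set. All 10 genes were below both controls, as were 19.9% of all genes. ISG15 stood at 214.8 and 193.5 TPM, 2.26-fold below its controls, a difference of -1.18 ± 0.07. OASL stood at 11.3 and 13.7 TPM, 2.67-fold below, and HERC5 at 15.5 and 16.9 TPM, 1.85-fold below. The 3 genes that label 79 left near the controls were therefore well below them with label 86.

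The IFIT genes were also low with label 86. IFIT1 stood at 27.0 and 30.7 TPM, 2.49-fold below its controls. IFIT3 stood at 22.6 and 26.0 TPM, IFIT2 at 20.1 and 19.9 TPM, and IFIT5 at 11.5 and 12.6 TPM, the last only 1.43-fold below. The sensors DDX58, at 14.8 and 16.7 TPM, and IFIH1, at 4.10 and 4.92 TPM, were 1.75-fold and 1.94-fold below. ISG20 stood at 2.67 and 4.10 TPM, and its libraries were further apart than the group means. Apart from IFIT5 and ISG20, 8 genes were called lower beside 2.01% of all genes, and the same 8 with the adjusted P beside 0.780%.

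Line label 87, the label with the highest U11 level, had most of these genes near control level. DDX58 stood at 31.0 and 33.3 TPM against 26.5 and 28.4 TPM in the controls, a difference of 0.22 ± 0.11. HERC5 stood at 38.4 and 38.5 TPM against 30.0 and 29.8 TPM, a difference of 0.35 ± 0.07. OASL, at 40.5 and 38.5 TPM, and IFIT2, at 45.2 and 48.9 TPM, were also slightly above both controls. These 4 genes were above every control library, as were 22.7% of all genes. The same 4 were below every control with labels 79 and 86, a split shown by 1.14% of all genes, and since these values chose the genes nothing is read from it.

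ISG15 was on the other side with label 87, at 329.2 and 349.7 TPM, a difference of -0.44 ± 0.07. It was 1.36-fold below its controls, and so missed a call on the fold threshold alone. IFIT1, at 63.1 and 68.2 TPM, IFIT3, at 50.7 and 54.5 TPM, and IFIT5, at 12.96 and 14.84 TPM, were slightly below both controls. These 4 were below every control library, as were 25.5% of all genes. IFIH1, at 8.20 and 9.73 TPM, and ISG20, at 7.54 and 3.47 TPM, straddled the controls. None of the 10 genes was called higher or lower, against 2.08% and 3.05% of all genes. That is a statement about these thresholds, and the SE of most genes was near 0.1.

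**Figure D3:**
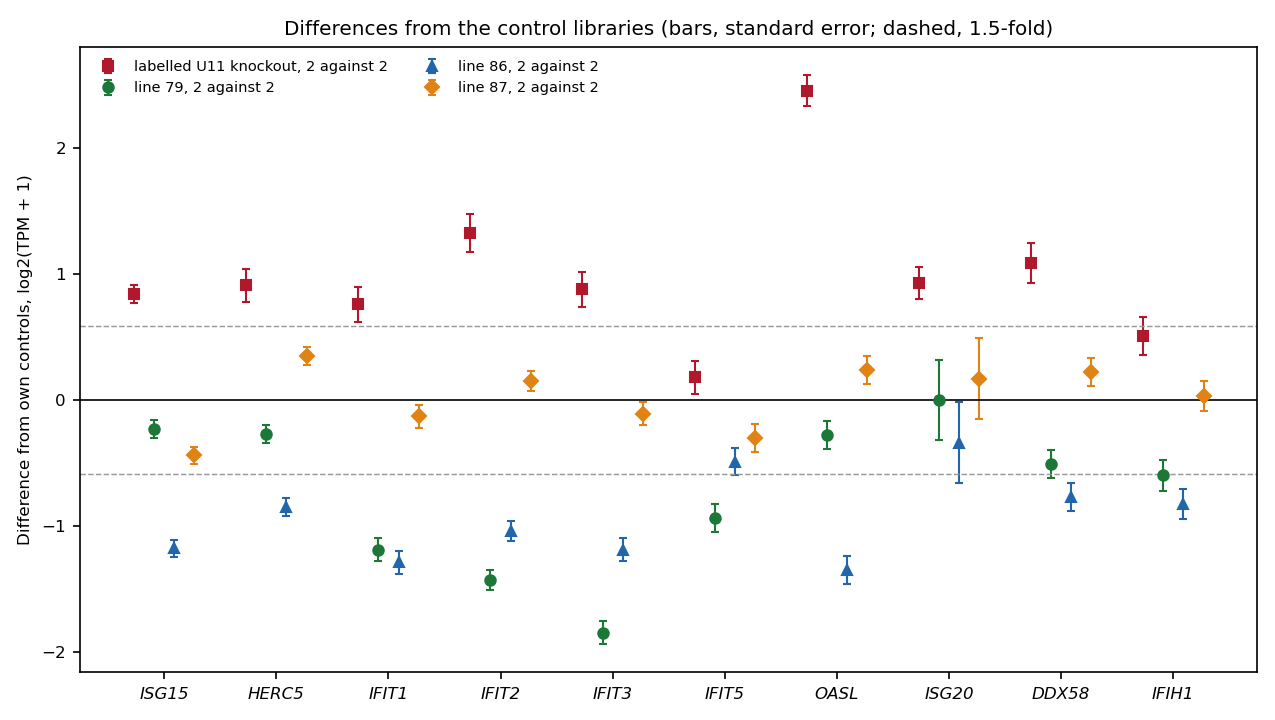
Difference of each gene from the controls of its own comparison on the log2(TPM + 1) scale (vertical axis) with SE bars, for the libraries labelled U11 knockout and line labels 79, 86 and 87, 2 libraries against 2. The labelled knockout lies above 0 for all 10 genes, label 86 below 0 for all 10, and label 79 is lowest for IFIT2, IFIT3 and IFIT5.

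Labels 79 and 86 split the genes in opposite ways. IFIT3, IFIT2 and IFIT5 were lower with label 79 than with label 86, by -0.66 ± 0.09, -0.39 ± 0.08 and -0.46 ± 0.11. OASL, ISG15 and HERC5 were higher with label 79, by 1.07 ± 0.11, 0.95 ± 0.07 and 0.58 ± 0.07. IFIT1 was alike within its error, at 0.09 ± 0.09. In TPM, ISG15 with label 79 was 1.93-fold and OASL 2.19-fold of the level with label 86. The libraries of the labels did not overlap for 8 of the 10 genes, as for 55.3% of all genes, so nothing is read from that count.

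The pattern was seen in both library series, each with 1 library per label and 1 control, which may not be separate cultures. Against the control of its own series, label 86 was lower for all 10 genes in each, with medians of -0.97 and -0.93. Label 79 was lower for 9 genes in the first and 10 in the second, with medians of -0.57 and -0.54. Label 87 was lower for 5 and higher for 5 in each, with medians of 0.04 and 0.00. No share over all genes was computed by series, so nothing is read from these counts. Of the markers that followed the series, LYZ differed little within each such comparison. In the second series, CD3E was at 0.66 TPM in the control and 0.50, 0.71 and 0.91 TPM with labels 79, 86 and 87. PTPRC was there at 0.27 TPM in the control and 0.31, 0.30 and 0.50 TPM with the same labels. CD68 was higher and CD14 lower with label 87 in both series. With label 87, ISG20 changed sign between series, at 0.56 in the first and -0.22 in the second, and so did IFIH1, at -0.04 and 0.10. With label 79, ISG20 was at 0.05 and -0.04.

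In each group the order of levels began with ISG15. In the overexpression controls it was followed by IFIT1, IFIT3, IFIT2, OASL, HERC5, DDX58, IFIT5, IFIH1 and ISG20. HERC5 and DDX58 were close neighbours there, at mean levels of 29.9 and 27.5 TPM with ranges that did not overlap. With label 79, IFIT2 and IFIT3 overlapped, at means of 15.1 and 15.0 TPM. The read coverage behind the genes differed with their level, from 3.10 reads per base for ISG20 at its lowest to 1739 for ISG15 at its highest. The SE of ISG20 was the largest among the 10 genes in the line label fit, at 0.32, but not in the knockout comparison, at 0.13.

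The genes around these 10 in the same response were taken from lists. Among 23 partners of RNA sensing, 22 were measured in the knockout comparison. There, 4 rose (3 with the adjusted P) and 1 fell, with a median of 0.21. DDX60, a helicase linked to RIG-I, rose from 10.4 and 15.3 TPM to 73.8 and 66.2 TPM, a difference of 2.38 ± 0.20. ZNFX1 (0.89 ± 0.09) and ZC3HAV1 (0.76 ± 0.11), which bind viral RNA, and DHX58 (0.60 ± 0.12), the relative of RIG-I known as LGP2, also rose. The DHX58 call was lost with the adjusted P. IRF7, a factor that drives interferon genes, fell from 21.3 and 21.8 TPM to 10.3 TPM or less in both libraries, a difference of -1.02 ± 0.10. The adaptor MAVS was at 25.3 TPM in both controls and at 30.0 and 27.5 TPM in the labelled knockout pair.

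The same partners mostly stayed near the controls in the overexpression comparison, where 0 of 22 were called. With label 86, 4 fell (2 with the adjusted P), and these were DDX60 (-1.19 ± 0.08), DHX58 (-0.66 ± 0.19), IRF7 (-0.60 ± 0.11) and ZNFX1 (-0.59 ± 0.07). The calls of DHX58 and IRF7 were lost with the adjusted P. With labels 79 and 87, 0 were called. DDX60 was at 29.0 and 28.9 TPM in the controls, 25.9 and 26.6 TPM with label 79, 11.3 and 12.9 TPM with label 86, and 39.8 and 41.5 TPM with label 87. Its order over the labels was that of OASL.

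Of the 6 genes that attach or remove ISG15, HERC6, a relative of HERC5, rose in the knockout comparison, from 7.50 and 8.66 TPM to 20.2 and 17.8 TPM (1.14 ± 0.13). UBE2L6, the conjugating enzyme, stood at 36.8 and 35.3 TPM in the control pair and 26.5 and 25.8 TPM in the labelled knockout pair, a difference of -0.45 ± 0.09 that did not reach the fold threshold. USP18, the protease that removes ISG15, was at 6.10 and 6.41 TPM against 6.61 and 6.22 TPM. TRIM25, also a ligase of ISG15, was at 41.2 and 38.9 TPM against 31.9 and 27.8 TPM (-0.41 ± 0.11), and ARIH1 differed by 0.12 ± 0.13. UBA7, the activating enzyme, was at 3.33 and 3.83 TPM against 6.44 and 5.14 TPM (0.56 ± 0.15), just under the fold threshold on the log2 scale. HERC6 was thus the only one of the 6 called.

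In the overexpression comparison 0 of the 6 were called. By mean difference 5 were lower and ARIH1 was level with its controls, with a median of -0.29 over the 6. With label 79, UBA7 (-0.69 ± 0.13) and USP18 (-0.59 ± 0.09) fell. With label 86, HERC6 (-1.30 ± 0.10), USP18 (-0.79 ± 0.09) and UBE2L6 (-0.78 ± 0.07) fell. With label 87, 0 were called. All these calls held with the adjusted P.

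The interferons themselves were scarcely detected. All 22 interferon genes listed fell under the filter of at least 1 TPM in 2 libraries in both comparisons. IFNE was the highest, at up to 1.07 TPM with label 79, and IFNB1 did not exceed 0.16 TPM. In the knockout comparison IFNE was at 0.05 and 0.23 TPM in the control pair and 0.69 and 0.66 TPM in the labelled pair. In the overexpression controls it was at 0.28 and 0.62 TPM. It was at 0.95 and 1.07 TPM with label 79, 0.63 and 0.73 TPM with 86, and 0.54 and 0.73 TPM with 87. Differences at such low levels were not tested. TPM carries no counting error, so no upper limit was set. Of 15 receptors and signalling factors, 14 were measured in the knockout comparison and 0 were called.

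Over the 6 overexpression libraries, 3 of 15 signalling genes fell, 0 of them with the adjusted P. IRF9, a DNA-binding factor of the interferon response, was at 29.4 and 25.8 TPM in the controls, 11.6 and 10.6 TPM with label 79, 14.0 and 12.6 TPM with label 86, and 14.3 and 25.9 TPM with label 87. IRF1 (-0.74 ± 0.23) and the receptor chain IL10RB (-0.59 ± 0.21) also fell. IL10RB was at 30.8 TPM in 1 control and 16.0 TPM in the other. By label, 3 fell with 79, 1 with 86 (IRF9) and 1 with 87 (IRF1), and with the adjusted P these became 2, 0 and 0.

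Other interferon-induced genes did not all follow the 10. In the knockout comparison 6 of 36 rose and 7 fell, 2 and 4 of them with the adjusted P, and the median was -0.04. IFI44 (1.99 ± 0.21), SAMD9 (1.81 ± 0.36), IFI44L (0.87 ± 0.21) and SAMD9L (0.84 ± 0.24) rose. Of these, only IFI44 kept its call with the adjusted P. IFI27 fell from 44.5 and 70.3 TPM to 4.88 and 2.33 TPM, a difference of -3.69 ± 0.35. MX1, a GTPase that blocks viruses (-1.40 ± 0.17), IFITM1, which blocks viral entry (-0.98 ± 0.11), and TRIM22 (-0.94 ± 0.14) fell too. So in the same libraries OASL and IFIT2 were higher while IFI27 and MX1 were lower.

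With overexpression, 11 of 35 fell and 0 rose, 2 with the adjusted P, and the median was -0.46. IFI27 (-2.69 ± 0.66), IFI6 (-2.04 ± 0.18), XAF1 (-1.93 ± 0.22) and MX1 (-1.85 ± 0.47) fell most. By label, 16 fell with 79, 19 with 86 and 8 with 87, where 1, LAMP3, rose. With the adjusted P these falls numbered 15, 15 and 6. IFI6 was at 154.8 and 150.4 TPM in the controls and between 29.1 and 48.9 TPM in all 6 overexpression libraries. With label 87, IFI6 (-1.84 ± 0.15) and XAF1 (-1.77 ± 0.25) fell, whereas 0 of the 10 genes were called with that label.

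Among genes with a mean of at least 5 TPM, the 8 whose levels were most like the mean of the 10 genes over the 8 libraries of the overexpression comparison were sought among 11155. IL7R, a cytokine receptor chain, was the most alike, with a Pearson r of 0.993. USP18 (0.988), DUBR (0.985), UBE2L6 (0.980), DTX3L (0.979), COL8A1 (0.978), GBP1 (0.978) and ARRDC1 (0.959) came next. These libraries share line labels in pairs, so the r describes 4 groups more than 8 separate samples. IL7R was at 151.4 TPM in both controls, between 75.9 and 85.9 TPM with labels 79 and 86, and at 145.8 and 153.9 TPM with label 87. In the knockout comparison it was at 54.5 and 58.8 TPM in the control pair and 139.8 and 126.1 TPM in the labelled knockout pair.

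Another gene that moved with a group was CDH5, an endothelial cadherin. It stood at 4.85 and 4.75 TPM in the controls of the knockout comparison and at 0.03 TPM in both libraries labelled U11 knockout. It stood at 34.1 and 32.2 TPM with label 79 against 3.43 and 3.08 TPM in the controls. The other endothelial markers were near 0, with VWF at most 0.09 TPM and PECAM1 at most 0.30 TPM, and the 3 markers summed to 0.10 and 0.13 TPM in the labelled knockout pair. KRT19 and FOXA1 also fell in the knockout comparison, by 0.74 ± 0.08 and 0.89 ± 0.14 on the log2 scale, while GATA3 rose by 0.75 ± 0.15, a call lost with the adjusted P. With label 87, GATA3 fell from 17.4 and 13.6 TPM in the controls to 6.78 and 6.31 TPM, a difference of -1.12 ± 0.15 that held with the adjusted P. The part of these markers in the levels of the 10 genes was not tested.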

How the data were processed

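RNA sequencing of 12 T24 libraries was used. Per the study's methods, the authors depleted ribosomal RNA (the labels name poly(A) RNA), used Hisat2 for alignment to hg38 and Stringtie for gene levels. Deposited for every gene were coverage (a signal in aligned bases per position), FPKM and TPM. No counts were used here, so count tests were not run, and the spread between libraries gave the precision. Depth was taken from the upper limit of the ratio of coverage to FPKM.

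Differences were fitted with limma 3.58.1 in R 4.3.3 (mean-variance trend) on log2(TPM + 1), over genes with at least 1 TPM in at least 2 of the libraries compared. The line labels came from 1 fit of 8 libraries. Calls used unadjusted P < 0.05 and a fold change of at least 1.5, the thresholds of the study with its P taken as unadjusted, and the Benjamini-Hochberg adjusted P was run beside it. The 10 genes, the lists and the rules were chosen with earlier results of these data known. Named list genes were those called with the largest differences, up to 4 per list and direction, and genes given for their role. The values of 1 list member are not reported here, while counts include it. Scripts were tested on simulated data. Python 3.11.15, numpy 2.4.6, pandas 2.3.3 and matplotlib 3.10.9 were used.

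Alternatives were a pseudocount of 0.1, FPKM, median ratio scaling, no filter, 1 TPM in every library, no trend, adjusted P, all 4 controls, the mean of each line label, replicate or series blocks, and each library left out.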

Additional observations from a re-analysis of the deposited data

Results flagged for a closer look

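For 4 of the 10 genes, the libraries of line labels 79 and 86 lay below both controls while those of line label 87 lay above both, as for 1.14% of all genes. The difference of line label 87 minus line label 86, on the log2(TPM + 1) scale, was 1.59 for OASL, 1.20 for HERC5, 1.19 for IFIT2 and 0.99 for DDX58. These differences were not tested, because the genes were chosen on these values.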

How the results depend on the processing

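The number of the 10 genes called in the knockout comparison was 8, and 2 with all 4 controls or with a replicate block and adjusted P (added after seeing the data). It was 8 with the replicate block alone and 8 to 9 with each library left out. The replicate numbers correlated at 0.02, so they share only a number. In the overexpression comparison the 1 call became 2 with a pseudocount of 0.1 and 0 with no filter, adjusted P, the library series block (with either P), all 4 controls or the mean of each line label. Leaving out 1 library gave 0 to 5. The 5 calls came without the second library of label 87 and the 3 without its first. With label 87, 0 to 1 were called. The 5 calls of label 79 ranged from 4 to 6 and the 8 of label 86 stayed at 8.

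Calls over all genes numbered 1688 in the knockout comparison, 984 with adjusted P, 147 with the block and adjusted P, and 976 with all 4 controls. In the overexpression comparison there were 304, against 154 on FPKM, 175 with 1 TPM in every library, 26 with adjusted P, 21 with the series block and adjusted P, and 3233 with all 4 controls. For label 79 there were 1254, and 749 on FPKM. For label 86 there were 568, against 298 on FPKM, 370 with 1 TPM in every library, 216 with adjusted P and 217 with the series block and adjusted P. For label 87 there were 809, against 411, 503, 418 and 407. The causes were not tested.

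With all 4 controls, which come from different library series, the median of the 10 genes in the knockout comparison moved from 0.90 to 0.35. The median over all genes moved with it, from 0.11 to -0.31. IFIT1 moved from 0.76 to 0.06, ISG15 from 0.84 to 0.14 and IFIT3 from 0.88 to 0.18, and IFIT5 turned to -0.16. In the overexpression comparison 4 of the 10 genes turned higher, and their median moved from -0.52 to -0.12. The median over all genes there moved from -0.02 to 0.39, and 88.6% of all calls were higher. Otherwise all 10 genes stayed higher in the knockout comparison and all 10 lower with label 86 in every setting run. ISG20 had the lowest coverage, and how depth limits each gene was not compared.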

Other observations

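Relatives of the 10 genes in the same families gave a mixed picture. In the knockout comparison 3 of 13 rose, 2 with the adjusted P, and 0 fell. They were HERC6, HERC3 and DHX58, and the DHX58 call was lost with the adjusted P. HERC3, which lies in the same gene family as HERC5, was at 8.74 and 9.23 TPM in the control pair. It was at 19.9 and 17.8 TPM in the labelled knockout pair. In the same libraries OASL's relatives OAS1, OAS2 and OAS3 differed by 0.00 ± 0.15, -0.10 ± 0.14 and -0.30 ± 0.11 (SE, log2 scale). In the overexpression comparison 3 of 13 relatives fell, 0 with the adjusted P, and these were OAS1 (-1.55 ± 0.36), OAS2 (-1.41 ± 0.34) and OAS3 (-0.78 ± 0.17). By line label, 4 of 13 fell with 79, 6 with 86 and 2 with 87, and 4, 5 and 1 with the adjusted P. With label 86, OAS1 (16.9 and 14.1 TPM in the controls, 4.31 and 2.18 TPM with the label), OAS2 (-1.98 ± 0.12) and OAS3 (-0.90 ± 0.08) fell, and OASL was at -1.35 ± 0.11. With label 79, OAS1 (-1.71 ± 0.27), OAS2 (-1.45 ± 0.12) and OAS3 (-0.96 ± 0.08) fell, and OASL was at -0.28 ± 0.11. With label 87, OAS1 (-0.95 ± 0.27, lost with the adjusted P) and OAS2 (-0.79 ± 0.12) fell, and OASL was at 0.24 ± 0.11.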
